A study of Mus musculus with 3 samples.

Results

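The 35 genes described here encode proteins of the lysosome, the acidic compartment in which cells break down proteins, sugars and lipids. They were taken as a fixed list: 6 cysteine cathepsins, 4 other proteases, the cathepsin inhibitor Cst3 with progranulin (Grn), 7 glycosidases, 7 genes of lipid handling, 8 membrane proteins and the transcription factor Tfeb. All 35 were in the list of 22548 measured genes, and all 35 reached 100 UMIs (unique molecular identifiers, each a counted mRNA molecule), the level used for the 10888 genes that serve as background. Their depth ran from 244 UMIs for Smpd1 to 396312 for Cst3. No measured value entered the choice, although results of these data were known when the list was drawn up.

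CITE-seq, the method used, counts mRNA molecules and antibody-bound tags in single cells. The cells were migratory dendritic cells of the ear-draining lymph node that were neither Langerhans cells nor type 1 conventional dendritic cells (cDC1), sorted as B220-, XCR1- and CD326- with high MHC class II. All came from mice that carried SiglechiCreTg/0, ROSA26LoxP-STOP-LoxP-RFP and also Tnfsf4KI/+, were given MC903, which is calcipotriol and causes skin inflammation, on days 0, 2 and 4, and gave cells for sorting on day 5. The sort gave 5200 cells with both reporters (BFP+RFP+, called double-positive below), 5200 with RFP alone (BFP-RFP+, RFP-only), 10400 with BFP alone (BFP+RFP-, BFP-only) and 5200 with neither (BFP-RFP-, double-negative), which were pooled after each had received its own hashtag antibody. The RFP allele stays on in a cell and its progeny once Cre has removed the stop, so RFP marks past activity of a Siglech-driven Cre, and Tnfsf4 encodes the costimulatory ligand OX40L. Every group shared the same treatment, 1 Tnfsf4 knock-in allele and the Cre transgene, and no cells of untreated mice were analysed here. How many mice were pooled, and their age, is not stated in the labels, nor is the allele that carries BFP.

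Dendritic cells use lysosomal proteases to cut antigen into peptides and to trim the invariant chain that occupies the groove of MHC class II, and cathepsin S does the last of these cuts in many of them. Other hydrolases take apart glycolipids and glycans, with saposins cut from prosaposin (Psap) as helpers and NPC2 and NPC1 handing cholesterol out of the lysosome. TFEB and its relatives drive many of these genes together through a promoter element called CLEAR, and macrophages are known for much lysosomal hydrolase.

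Of 6079 barcodes, 699 had no hashtag at 80% or more of their hashtag UMIs and 357 failed the filters on depth or mitochondrial share. The 842 double-positive, 982 RFP-only, 2185 BFP-only and 1014 double-negative cells kept had a median of 13884 to 15182 mRNA UMIs. Each population is 1 sample of 1 pool in 1 capture, so no p-value was computed, and the 95% intervals below cover counting error only. Levels are given as CPM, the UMIs of a gene per 1000000 mRNA UMIs. BFP mRNA stood at 41.4 CPM in double-positive and 16.8 in BFP-only cells, above 7.18 in RFP-only and 2.35 in double-negative cells, and RFP mRNA at 23.5 and 21.0 CPM where RFP was sorted for and at 0.169 and 0.672 where it was not. Tnfsf4 mRNA was at 305 CPM in double-positive, 53.0 in RFP-only, 102 in BFP-only and 19.8 in double-negative cells. It therefore differed in the RFP comparisons as well as in those of BFP. The 10 migratory dendritic cell markers summed to between 8976 and 9307 CPM in every population. The 4 cDC1 markers summed to 0.495 to 2.49 CPM, the 3 Langerhans cell markers to 23.8 to 34.8 and the 5 plasmacytoid dendritic cell markers to 16.9 to 28.5. Of these, Clec9a, Tlr3 and Klk1 were at 0 in double-positive cells and Klk1 also in double-negative cells. The hashtags do not reveal doublets of cells of the same population, and these were not removed.

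Because TFEB acts through an E-box, the promoters of the genes were read from RefSeq (GRCm38.p6) for the letters CACGTG, a sequence that reads the same on both strands, and for TCACGTG on either strand, which contains it. Windows of 300 bases, 250 before and 50 after the start site, were at hand for 31 of the 35 genes. CACGTG lay in the window of 9 of these 31 (29.0%), namely Cln3, Ctsa, Ctsd, Ctsl, Gla, Glb1, Lamp1, Lgmn and Mcoln1, against 8.09% of 27025 genes overall. The longer TCACGTG lay in 8 of 31 (25.8%), against 4.29% overall. These 27025 are all genes with a window, whether or not they were expressed here, and not the 10888 tested genes. The 250 bases upstream of 4 start sites are shown 5' to 3', the first 2 as genes with matches and the last 2 as genes that were lower in the BFP and RFP comparisons below. Capitals mark TCACGTG or its reverse complement.
Lamp1 (chr8:13158911-13159160, plus strand): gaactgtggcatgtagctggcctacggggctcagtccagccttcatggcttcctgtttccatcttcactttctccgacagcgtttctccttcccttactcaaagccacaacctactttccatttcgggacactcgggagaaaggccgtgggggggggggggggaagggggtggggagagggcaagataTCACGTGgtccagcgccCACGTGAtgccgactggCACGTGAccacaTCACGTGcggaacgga
Mcoln1 (chr8:3500269-3500518, plus strand): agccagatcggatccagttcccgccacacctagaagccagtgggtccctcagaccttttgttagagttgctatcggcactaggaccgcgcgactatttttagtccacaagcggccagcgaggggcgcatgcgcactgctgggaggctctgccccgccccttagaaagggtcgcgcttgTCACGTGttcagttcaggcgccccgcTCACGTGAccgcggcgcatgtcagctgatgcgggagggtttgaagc
Npc2 (chr12:84773113-84773362, minus strand): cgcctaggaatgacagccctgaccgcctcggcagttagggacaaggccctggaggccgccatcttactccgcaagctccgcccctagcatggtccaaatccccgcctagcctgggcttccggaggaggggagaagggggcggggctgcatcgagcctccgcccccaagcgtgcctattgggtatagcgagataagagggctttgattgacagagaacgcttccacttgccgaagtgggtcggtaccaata
Gusb (chr5:130003050-130003299, minus strand): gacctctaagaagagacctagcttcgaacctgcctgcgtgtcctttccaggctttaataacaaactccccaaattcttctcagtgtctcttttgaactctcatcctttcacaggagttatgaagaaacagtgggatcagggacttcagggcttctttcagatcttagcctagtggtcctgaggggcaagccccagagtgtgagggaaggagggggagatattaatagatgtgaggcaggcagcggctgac
Lamp1 has 4 copies of CACGTG in these bases and Mcoln1 has 2, whereas Npc2 and Gusb have none. These 4 are examples only. Of the 9 genes with CACGTG, 2 (Ctsa and Ctsl) were lower in both BFP comparisons below, and of the 22 without it 10 were. Over all tested genes that share was 9.07%. A relation between the motif and the ratios was not tested. A match is a run of letters, not a measured site of binding.

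BFP+ cells held less mRNA of many lysosomal genes than BFP- cells. A gene is called higher or lower here where its log2 ratio of CPM reached 0.3 in size, a 1.23-fold change. Within RFP+ cells, 17 of the 35 genes were lower and 0 higher in BFP+ cells, where 24.5% of all tested genes were lower and 7.45% higher. Within RFP- cells, 15 were lower and 0 higher, against 14.8% and 6.51% of all tested genes. The median log2 ratio of the 35 genes was -0.26 and -0.25 in these comparisons, beside -0.10 and -0.07 over all tested genes. The 12 genes lower in both, beside 9.07% of all tested genes, were Ctsa, Ctsl, Tpp1, Grn, Galc, Gusb, Man2b1, Psap, Npc2, Lipa, Cd68 and Tfeb. Of these, Psap, Npc2, Gusb, Man2b1 and Cd68 were lower in both under all 18 settings of the processing, the one used here included. The other 7 lost a call in 1 to 13 of them. All 18 keep the threshold of 0.3, and 1 of them, a floor of 100 UMIs per gene, left out none of the 35. At log2 0.5, Man2b1 was past the threshold in neither comparison and Npc2 was not within RFP-. RFP+ cells were compared with RFP- cells in the same 4 populations, so these comparisons share samples with those of BFP and their values stand beside them only as a description. Within BFP+ cells, 10 of the 35 genes were lower in RFP+ cells and 1 was higher, against 16.1% and 10.7% of all tested genes. Within BFP- cells, 7 were lower and 2 higher, against 12.4% and 13.7%. The 6 genes lower in both RFP comparisons, beside 6.49% of all tested genes, were Psap, Npc2, Lipa, Galc, Gusb and Laptm5, of which Psap, Npc2 and Galc were so under all 18 settings.

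**Figure D1:**
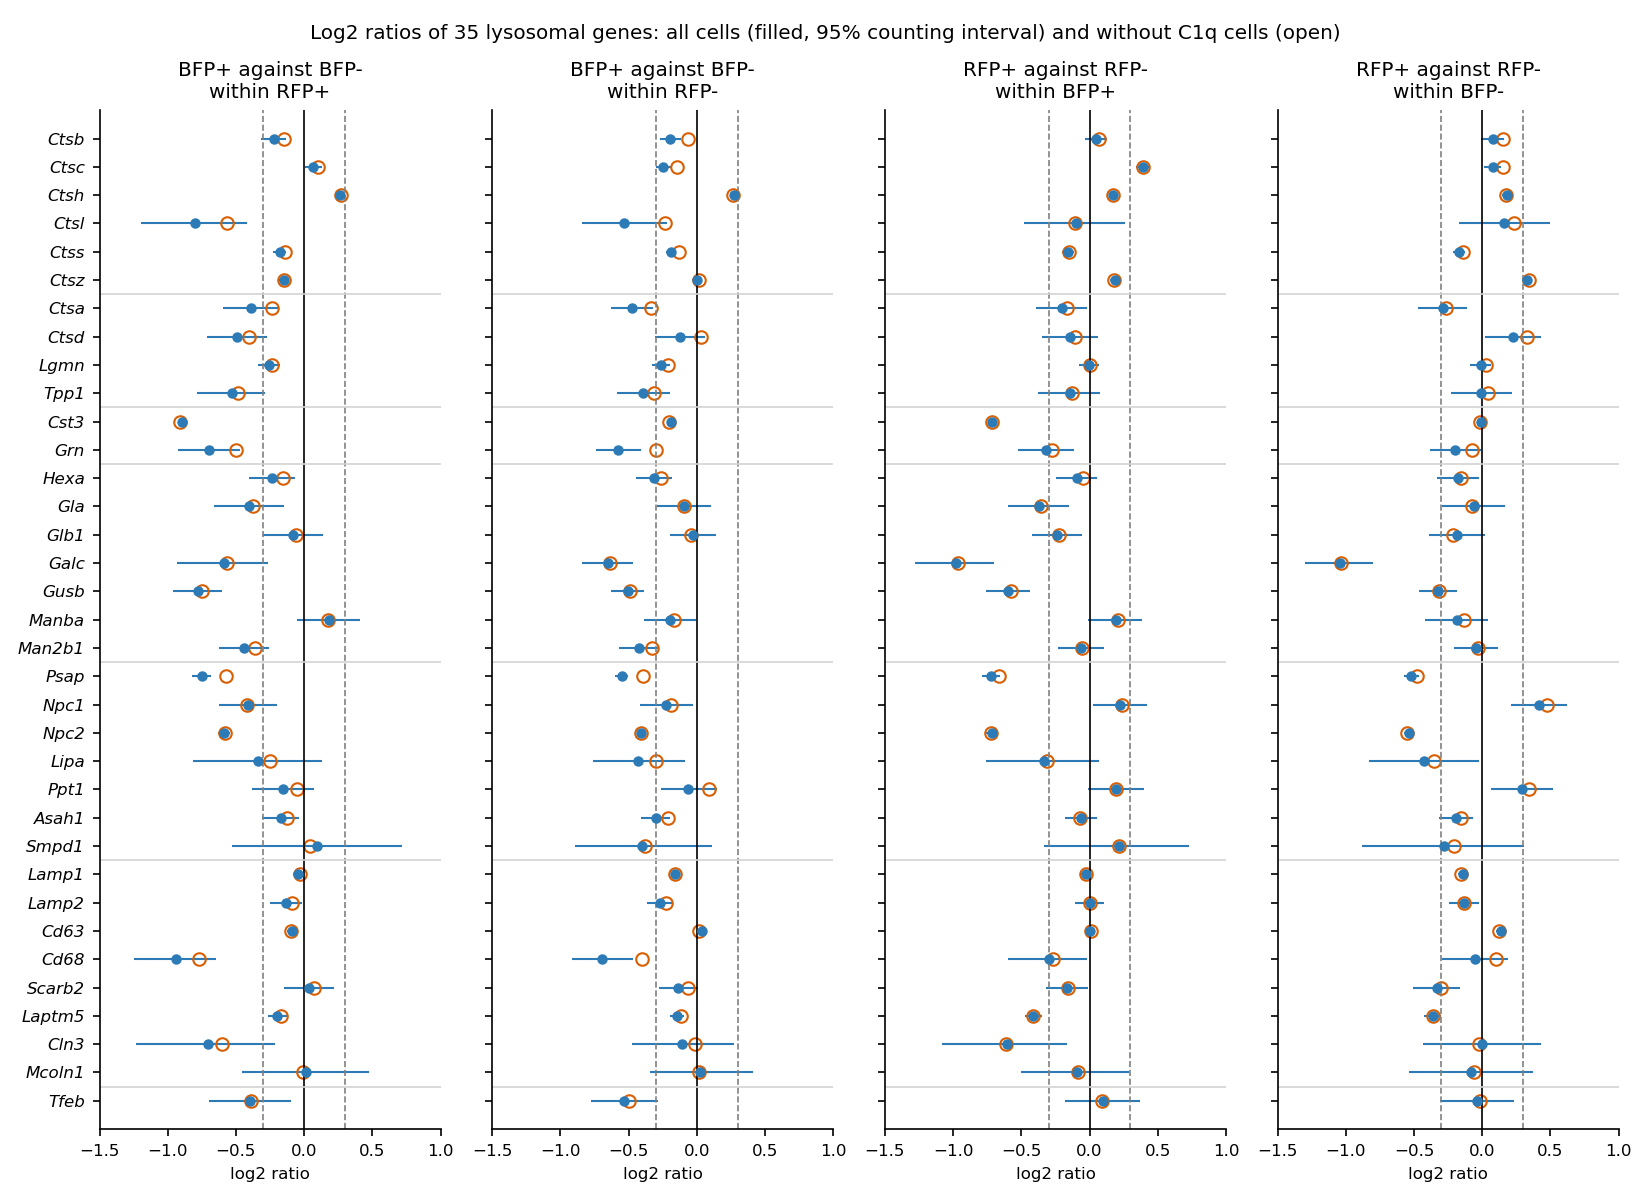
Log2 ratio of each of the 35 lysosomal genes in the 4 comparisons (columns), with genes in rows grouped by role and separated by grey lines. Filled points with bars are all cells with 95% counting intervals, open circles leave out cells with 5 or more C1q UMIs, and dashed lines mark -0.3 and 0.3. Most points of the BFP panels lie left of 0, with 17 and 15 past -0.3 and none past 0.3.

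Among the genes of lipid handling, Psap and Npc2 were lowest in double-positive and highest in double-negative cells. Psap (ENSMUSG00000004207), the precursor of the saposins, stood at 170 CPM (163 to 177) in double-positive cells, 286 (278 to 295) in RFP-only cells, 280 (274 to 285) in BFP-only cells and 410 (400 to 421) in double-negative cells. The intervals of the RFP-only and BFP-only cells overlap, and the other 2 stand clear on either side. Its log2 ratio was -0.75 (-0.82 to -0.68) for BFP within RFP+ and -0.55 (-0.60 to -0.51) within RFP-. For RFP it was -0.72 (-0.78 to -0.66) within BFP+ and -0.52 (-0.58 to -0.46) within BFP-. The median cell held 1.13 Psap UMIs per 10000 among double-positive cells, 1.79 among RFP-only cells, 1.90 among BFP-only cells and 2.62 among double-negative cells, so the ends of the order were the same in the typical cell while the middle populations changed places. Npc2 (ENSMUSG00000021242), which carries cholesterol inside the lysosome, was at 474 CPM (463 to 485) in double-positive cells, 712 (699 to 725) in RFP-only cells, 780 (771 to 789) in BFP-only cells and 1034 (1017 to 1050) in double-negative cells. None of these intervals overlap. The BFP ratios of Npc2 were -0.59 (-0.63 to -0.54) and -0.41 (-0.43 to -0.38), and its RFP ratios -0.72 (-0.76 to -0.68) and -0.54 (-0.57 to -0.50).

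The other 5 genes of lipid handling were less uniform. Lipa, the lysosomal acid lipase, had only 66 to 210 UMIs per population, at 4.67 CPM in double-positive, 5.91 in RFP-only, 5.90 in BFP-only and 7.93 in double-negative cells. Its ratios reached the threshold in all comparisons, from -0.33 to -0.43, but the intervals within RFP+ (-0.82 to 0.13) and within BFP+ (-0.76 to 0.07) hold 0. Npc1, the membrane partner of NPC2, did not follow it: its ratio was -0.41 (-0.62 to -0.20) for BFP within RFP+ yet 0.41 (0.21 to 0.62) for RFP within BFP-. Asah1, the acid ceramidase, stood at -0.17 and -0.30 for BFP, and Ppt1, a palmitoyl thioesterase, at -0.16 and -0.06. Smpd1, the acid sphingomyelinase, had too few UMIs for its direction to be read, with -0.40 (-0.89 to 0.11) for BFP within RFP-.

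The glycosidase gene Galc had the largest RFP ratios of the 35 genes. Galc (ENSMUSG00000021003), which removes galactose from galactosylceramide, was at 8.63 CPM (7.16 to 10.3) in double-positive cells, 13.0 (11.3 to 14.9) in RFP-only cells, 17.1 (15.8 to 18.5) in BFP-only cells and 26.9 (24.3 to 29.7) in double-negative cells. The 4 intervals do not overlap. For RFP the log2 ratio of Galc was -0.98 (-1.28 to -0.70) within BFP+ and -1.04 (-1.30 to -0.80) within BFP-, and for BFP -0.59 (-0.93 to -0.26) and -0.65 (-0.84 to -0.47). With 3 equal parts of the CD8a tag range given the same weight in each population, the BFP ratio of Galc within RFP+ was -0.03. Gusb (ENSMUSG00000025534), the beta-glucuronidase, was at 28.3 CPM (25.6 to 31.2), 48.6 (45.3 to 52.2), 42.8 (40.7 to 45.0) and 60.8 (56.9 to 64.9) in the same order of populations. Its BFP ratios were -0.78 (-0.96 to -0.61) and -0.51 (-0.63 to -0.39), and its RFP ratios -0.60 (-0.76 to -0.44) and -0.32 (-0.46 to -0.18). Man2b1, the lysosomal alpha-mannosidase, differed with BFP alone past the threshold: it was at 29.1 and 30.3 CPM in the BFP+ populations and 39.5 and 40.8 in the BFP- populations, with ratios of -0.44 and -0.43. The other 4 glycosidases, Hexa, Gla, Glb1 and Manba, ran from -0.40 to 0.18 within RFP+ and from -0.32 to -0.03 within RFP-. Of these, Gla was lower within RFP+ (-0.40) and Hexa within RFP- (-0.32).

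**Figure D2:**
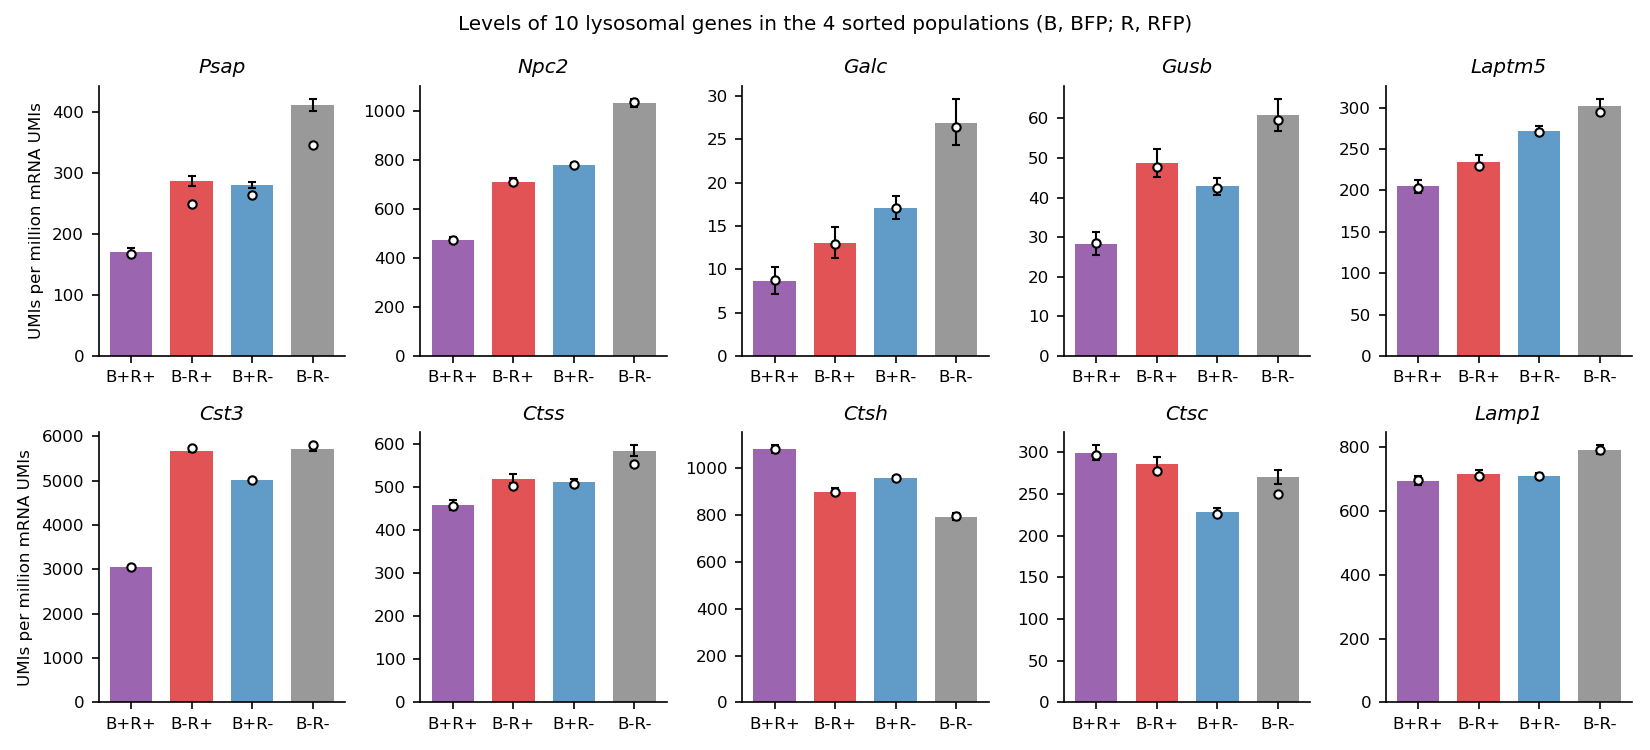
CPM of 10 lysosomal genes in the 4 populations, with B for BFP and R for RFP. Bars are all cells with 95% Poisson intervals and open points leave out cells with 5 or more C1q UMIs. Psap, Npc2, Galc and Gusb are lowest in cells with both reporters and highest in cells with neither, Cst3 is low in double-positive cells, and Ctsh is highest in cells with both reporters and lowest in cells with neither.

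Cst3 (ENSMUSG00000027447), cystatin C, a secreted inhibitor of cysteine cathepsins, was the most abundant of the 35 and set 1 population apart. It stood at 3057 CPM (3028 to 3086) in double-positive cells, 5679 (5642 to 5716) in RFP-only cells, 5020 (4997 to 5044) in BFP-only cells and 5713 (5674 to 5751) in double-negative cells. double-positive cells were low, and the RFP-only and double-negative intervals overlap. The BFP ratio was -0.89 (-0.91 to -0.88) within RFP+ and -0.19 (-0.20 to -0.17) within RFP-, a difference of -0.71 (-0.73 to -0.69). Cst3 varied widely between cells: the median was 14.9 UMIs per 10000 in double-positive cells and 19.8 to 21.1 in the others, and the 90th percentile was 59.7 in double-positive cells and 119 to 137 in the others. Grn, the precursor of granulins, was at 18.0 CPM in double-positive, 29.1 in RFP-only, 22.4 in BFP-only and 33.3 in double-negative cells, with BFP ratios of -0.69 (-0.92 to -0.47) and -0.57 (-0.74 to -0.41).

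Of the 6 cysteine cathepsins, only Ctsl reached the threshold for BFP, in both comparisons. Their median BFP ratio was -0.16 within RFP+ and -0.19 within RFP-, beside -0.10 and -0.07 over all tested genes. Ctss, cathepsin S, was at 458 CPM (447 to 469) in double-positive cells, 519 (508 to 530) in RFP-only cells, 511 (504 to 518) in BFP-only cells and 584 (571 to 596) in double-negative cells. Its ratios of -0.16 to -0.19 in all comparisons stayed within the threshold, although their intervals leave out 0. Ctsh, cathepsin H, ran the other way at 1081 CPM in double-positive, 899 in RFP-only, 958 in BFP-only and 793 in double-negative cells, with BFP ratios of 0.27 (0.23 to 0.30) and 0.27 (0.24 to 0.30). Scaling by the trimmed mean of M values (TMM) or by DESeq2 size factors shifted all BFP ratios up, by 0.105 within RFP+ with the latter, and took Ctsh past the threshold, to 0.36 and 0.37 within RFP+ and to 0.35 and 0.34 within RFP-. With these scalings Ctsh was the 1 gene higher in BFP+ cells. Ctsc, cathepsin C, which activates serine proteases, was at 299 CPM in double-positive, 286 in RFP-only, 228 in BFP-only and 271 in double-negative cells and was higher in RFP+ cells within BFP+ by 0.39 (0.34 to 0.45). Ctsz, cathepsin X, was higher in RFP+ cells within BFP- by 0.33 (0.29 to 0.36). Ctsl, cathepsin L, was lower in BFP+ cells, at 6.08 and 6.55 CPM against 10.6 and 9.48, with ratios of -0.80 (-1.19 to -0.42) and -0.54 (-0.84 to -0.22). Ctsb, cathepsin B, had BFP ratios of -0.22 and -0.19.

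Of the other proteases, Ctsa and Tpp1 were lower in both BFP comparisons. Ctsa, a carboxypeptidase that also shields other hydrolases, was at 22.8 CPM in double-positive, 29.9 in RFP-only, 26.3 in BFP-only and 36.6 in double-negative cells, with BFP ratios of -0.39 and -0.48. Tpp1, a tripeptidyl peptidase, was at 15.4, 22.3, 17.1 and 22.4 CPM in the same order, with -0.53 and -0.39. Ctsd, cathepsin D, was lower within RFP+ alone (-0.49, -0.72 to -0.27), and Lgmn, the asparaginyl endopeptidase legumain, had -0.26 in both.

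Most membrane proteins were close between populations. Lamp1, a main glycoprotein of the lysosomal membrane, was at 695 CPM (682 to 709) in double-positive cells, 716 (703 to 730) in RFP-only cells, 709 (700 to 718) in BFP-only cells and 791 (777 to 805) in double-negative cells. Only the double-negative interval stands clear of the other 3. Cd68, a macrophage-rich lysosomal glycoprotein, was at 9.48 CPM in double-positive, 18.2 in RFP-only, 11.7 in BFP-only and 18.9 in double-negative cells, with BFP ratios of -0.94 (-1.25 to -0.64) and -0.69 (-0.91 to -0.47). Laptm5, a transmembrane protein of blood cells, followed RFP at 205, 235, 272 and 302 CPM, with RFP ratios of -0.41 (-0.47 to -0.35) and -0.36 (-0.43 to -0.30). Lamp2, Cd63, Scarb2 and the calcium channel gene Mcoln1 ran from -0.27 to 0.04 for BFP. Cln3 was lower in double-positive cells against both neighbours, by -0.71 for BFP and -0.60 for RFP. Tfeb itself was at 11.2 CPM in double-positive, 14.8 in RFP-only, 10.5 in BFP-only and 15.2 in double-negative cells, with BFP ratios of -0.39 (-0.70 to -0.10) and -0.53 (-0.77 to -0.29) and RFP ratios of 0.10 and -0.04.

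Cells rich in complement C1q mRNA, as macrophages are, carried much more of these genes. The 51 cells with 5 or more UMIs of C1qa, C1qb and C1qc were 4 of 842 double-positive cells (0.475%), 15 of 982 RFP-only cells (1.53%), 11 of 2185 BFP-only cells (0.503%) and 21 of 1014 double-negative cells (2.07%), so they were more frequent in both BFP- populations. They differed by their own counts, not by a sort, and are a range of a per-cell score rather than a cell type. Against all other cells, 29 of the 35 genes were higher and 2 lower, where 35.7% of tested genes were higher and 33.0% lower. Cd68 was at 12.0 CPM in the 4782 cells with no C1q UMI, 15.3 in the 190 cells with 1 to 4 and 142 in the 51 cells with 5 or more. Psap went from 255 to 332 to 2280 CPM over the same classes, a log2 ratio of 3.14 (3.08 to 3.20) for 5 or more against fewer. Ctsl (3.43), Grn (3.38), Ctsd (3.06) and Ctsa (2.69) had ratios of like size. Npc2 did not show this, at 755, 842 and 784 CPM (0.05, -0.05 to 0.14), and Cst3 (-0.65) and Ctsh (-0.37) were the 2 lower genes. Of the macrophage markers, the 7 that did not cut these classes summed to 101, 238 and 2381 CPM. The monocyte marker Lyz2 alone went from 68.0 to 360 to 7346 CPM, and the other 6 monocyte markers summed to 20.5, 34.1 and 235. The migratory dendritic cell markers summed to 9212, 9855 and 5365.

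**Figure D3:**
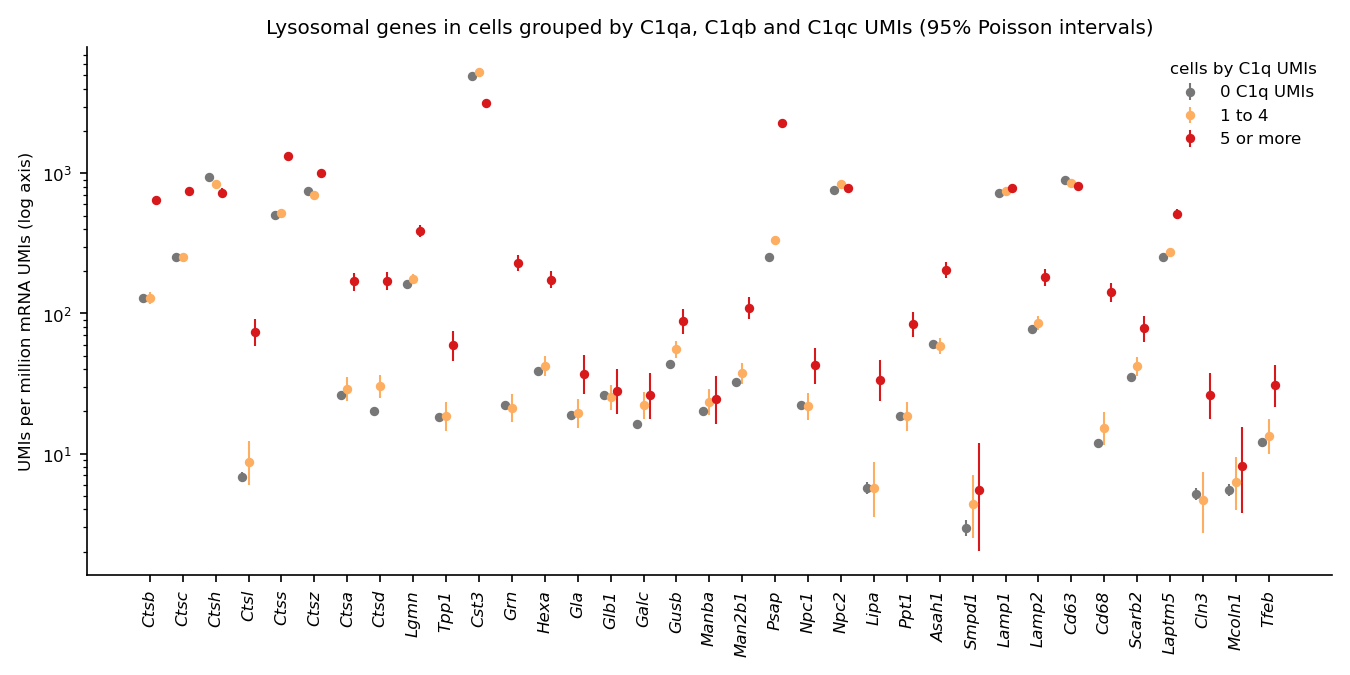
CPM on a log axis of the 35 lysosomal genes in cells with 0, 1 to 4 and 5 or more UMIs of C1qa, C1qb and C1qc, with 95% Poisson intervals. Cells with 5 or more stand above the others for most genes, by 3.55 on the log2 scale for Cd68, and below them for Ctsh and Cst3.

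Without these cells the BFP comparison kept fewer genes. Within RFP+ cells 15 genes were then lower and 0 higher, against 23.6% and 7.63% of tested genes, and within RFP- cells 10 were lower and 0 higher, against 13.3% and 7.02%. The medians were -0.23 and -0.21, beside -0.09 and -0.06 over all tested genes. The 8 genes lower in both, beside 7.71% of all tested genes, were Psap, Cd68, Galc, Gusb, Man2b1, Npc2, Tpp1 and Tfeb, while Ctsa, Ctsl, Lipa and Grn left the list. Psap went to -0.57 and -0.39, Cd68 to -0.77 and -0.40 and Grn to -0.50 and -0.30, whereas Npc2 was at -0.58 and -0.41 and Gusb at -0.75 and -0.49. Ctsl within RFP- went from -0.54 to -0.23. For RFP, 9 genes were lower and 1 higher within BFP+ (15.9% and 10.8% of tested genes), and 6 lower and 4 higher within BFP- (12.0% and 14.8%). The same 6 genes were lower in both, beside 6.21% of tested genes. The macrophage markers summed to 138 CPM in double-positive, 331 in RFP-only, 99.7 in BFP-only and 306 in double-negative cells, and to 112, 206, 73.2 and 100 without the 51 cells. The monocyte markers went from 139, 341, 95.2 and 386 CPM to 118, 209, 50.3 and 102, most of it Lyz2: without that gene the other 6 summed to 23.6, 18.6, 20.8 and 37.8 CPM over all cells, with S100a8 at 0 in BFP-only and S100a9 at 0 in RFP-only and BFP-only cells. The 7 macrophage markers other than the C1q genes were at 119, 255, 80.8 and 172 CPM, and at 109, 202, 70.1 and 97.4 without the 51 cells. The part of the remaining macrophage and monocyte mRNA in these ratios was not tested.

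Lysosomal mRNA also varied with the surface tags. Cells were ranked by the UMIs of a tag within their population and cut into 3 equal parts. The upper was compared with the lower, with UMIs summed over the 4 populations. Not all genes kept 1 direction across populations. In all 4 populations 18 of the 35 ratios were above 0 and 0 below it with CD11b. These numbers were 3 and 15 with CD8a, 16 and 1 with CD172a, and 9 and 3 with CD301b. CD11b, an integrin of myeloid cells, went with more lysosomal mRNA: 16 of the 35 genes were higher and 0 lower, against 13.3% and 25.3% of tested genes. Cd68 was at 5.27, 9.64 and 23.1 CPM in the lower, middle and upper parts (log2 ratio 2.13), Psap at 174, 212 and 420 (1.27), and Cst3 at 2998, 4882 and 6246 (1.06). Each was higher in all 4 populations. The lowest ratios were those of Glb1 (-0.27), Smpd1 (-0.24) and Lamp2 (-0.17). Over 8 settings Smpd1, with only 244 UMIs, ran from -0.27 to 0.55 and Lamp2 from -0.24 to 0.06. The CD8a tag went the other way, with 1 gene higher and 15 lower, against 8.38% and 21.5%. Cln3 (-1.02), Smpd1 (-0.89) and Psap (-0.87, from 385 to 210 CPM) were lowest, and the cathepsins Ctsc (0.47), Ctsh (0.26) and Ctsb (0.15) highest.

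CD172a, the receptor SIRP alpha that marks type 2 dendritic cells, was like CD11b in count but not in all genes. The likeness in count did not hold when tags were ranked by centred log ratio, as given below. In the ranking by tag UMIs 14 genes were higher and 2 lower, against 11.3% and 26.2% of tested genes. The highest ratios were those of Cd68 (1.06), Galc (1.02, from 10.3 to 20.8 CPM) and Psap (0.90), and Galc had not differed with CD11b (-0.03, -0.23 to 0.17). Lgmn had 0.70 with CD172a and 0.06 with CD11b. Tfeb (-0.57), Ppt1 (-0.37) and Mcoln1 (-0.15) were lowest. CD301b, a lectin of dermal dendritic cells, moved least: 5 genes were higher and 2 lower, against 7.13% and 20.3%. Galc (0.58), Cst3 (0.55), and Psap and Ctsb (0.38 each) led, and Tfeb (-0.50), Ppt1 (-0.38) and Cln3 (-0.23) were lowest. Cells with more tag also had more mRNA, with a median of 12054 UMIs in the lower and 17079 in the upper part for CD11b and like gaps for the other tags. The upper CD11b part held 43 of the 51 C1q cells and the upper CD172a part 40. Without those cells 12 genes were higher and 0 lower with CD11b (12.8% and 25.8% of tested genes), and 11 higher and 2 lower with CD172a (10.7% and 27.3%). Psap was then at 1.02 and 0.62 and Cd68 at 1.85 and 0.74. With CD8a 1 gene was then higher and 11 lower (8.70% and 20.6%), and with CD301b 5 were higher and 3 lower (7.27% and 20.5%).

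Barcodes with T or B cell markers moved with the tags as well. The lower CD11b part held 168 barcodes with T cell markers and 85 with B cell markers, against 49 and 32 in the upper part, and the lower CD172a part 164 and 93, against 55 and 24. Without all such barcodes 18 lysosomal genes were higher and 0 lower with CD11b (17.1% and 19.3% of tested genes), and 14 higher and 1 lower with CD172a (12.7% and 19.6%). With CD8a 1 was higher and 15 lower (9.27% and 22.6%), and with CD301b 6 were higher and 2 lower (8.08% and 17.3%).

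**Figure D4:**
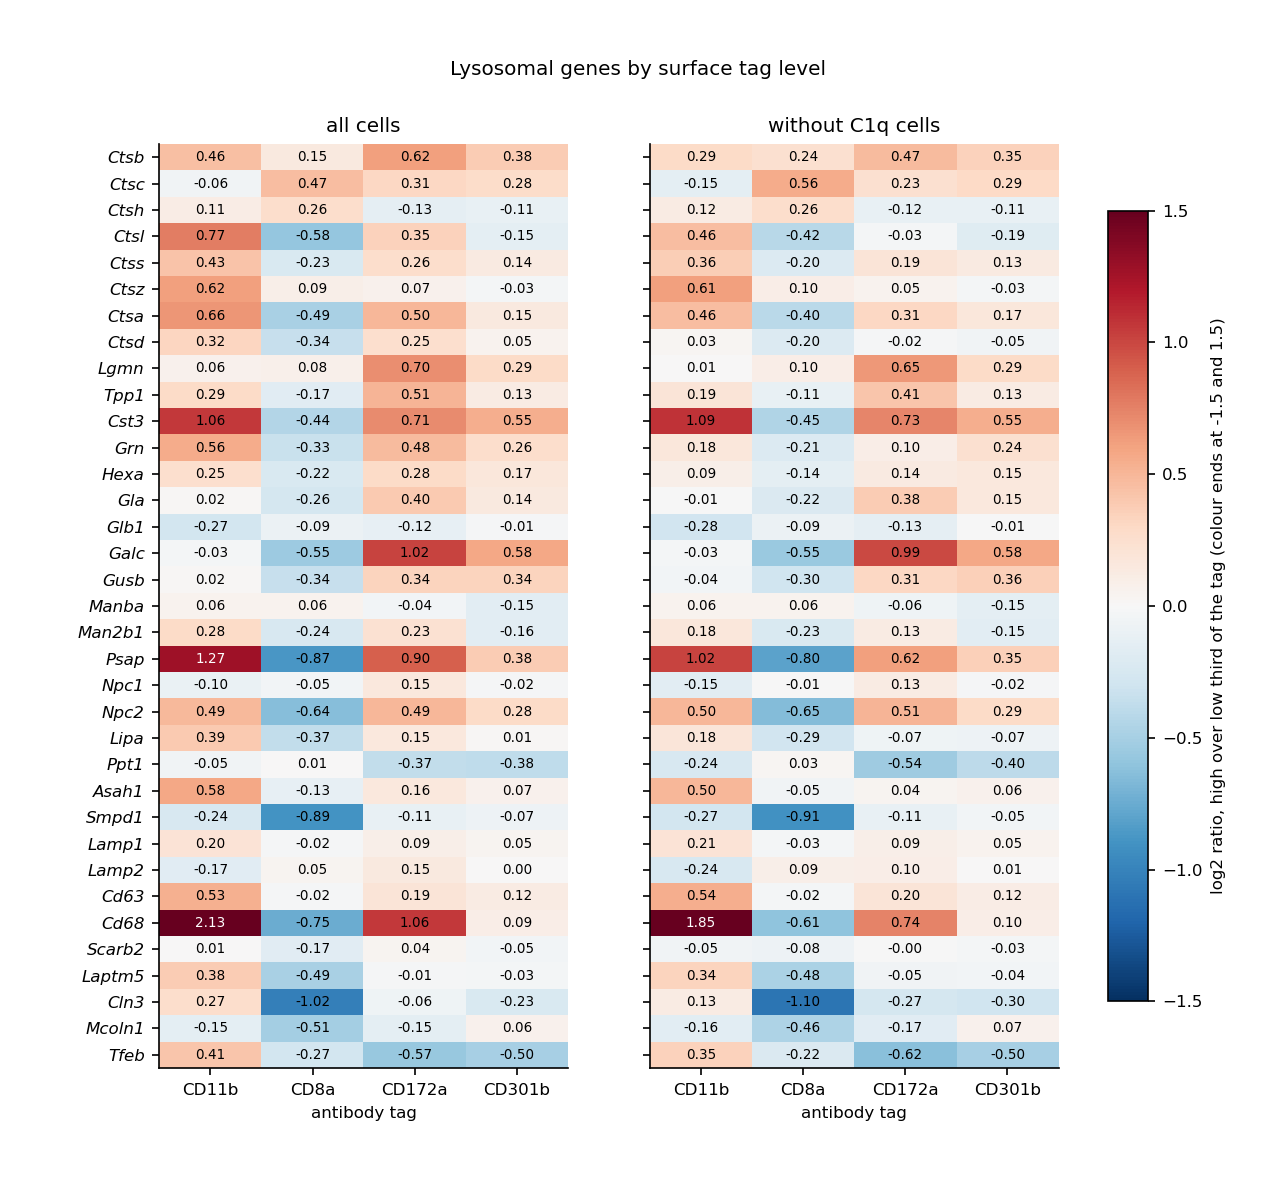
Log2 ratio of CPM between the upper and lower of 3 equal parts of cells ranked by each antibody tag, for the 35 lysosomal genes, with all cells on the left and without cells with 5 or more C1q UMIs on the right. Red is higher and blue lower in cells with more of the tag, and the CD11b and CD172a columns are mostly red while the CD8a column is mostly blue.

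The populations themselves differed in these tags. The median cell held 25 CD11b tag UMIs in double-positive, 39 in RFP-only, 46 in BFP-only and 55.5 in double-negative cells, and 121, 63, 42 and 40 CD8a tag UMIs. The comparisons were therefore repeated between cells in the same part of a tag's range, with the 3 equal parts now cut over all cells, which gives 12 ratios per comparison from the 4 tags. Each cell enters 1 part of every tag, so the 12 ratios are not separate checks. No share over all tested genes stands beside them. The median tested gene was itself below 0 for BFP over all cells (-0.10 within RFP+ and -0.07 within RFP-). Psap, Npc2 and Gusb, already lower over the same cells, were below 0 in all 12 ratios of each of the 4 comparisons. Ctss, Cd68, Man2b1, Asah1 and Grn were so in both BFP comparisons. Several others were mixed, such as Ctsc (7 of 12) and Smpd1 (4 of 12) for BFP within RFP+. For BFP within RFP+, Psap ran from -0.91 to -0.32, Npc2 from -0.71 to -0.35 and Gusb from -0.96 to -0.52. Galc was below 0 in 12 of 12 for RFP within BFP- and for BFP within RFP-, in 11 for RFP within BFP+ and in 9 for BFP within RFP+. Cst3 was below 0 in all 12 for BFP within RFP+ and for RFP within BFP+, but in 7 and 4 of 12 in the other comparisons. Ctsh was above 0 in all 12 for BFP in both RFP states.

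**Figure D5:**
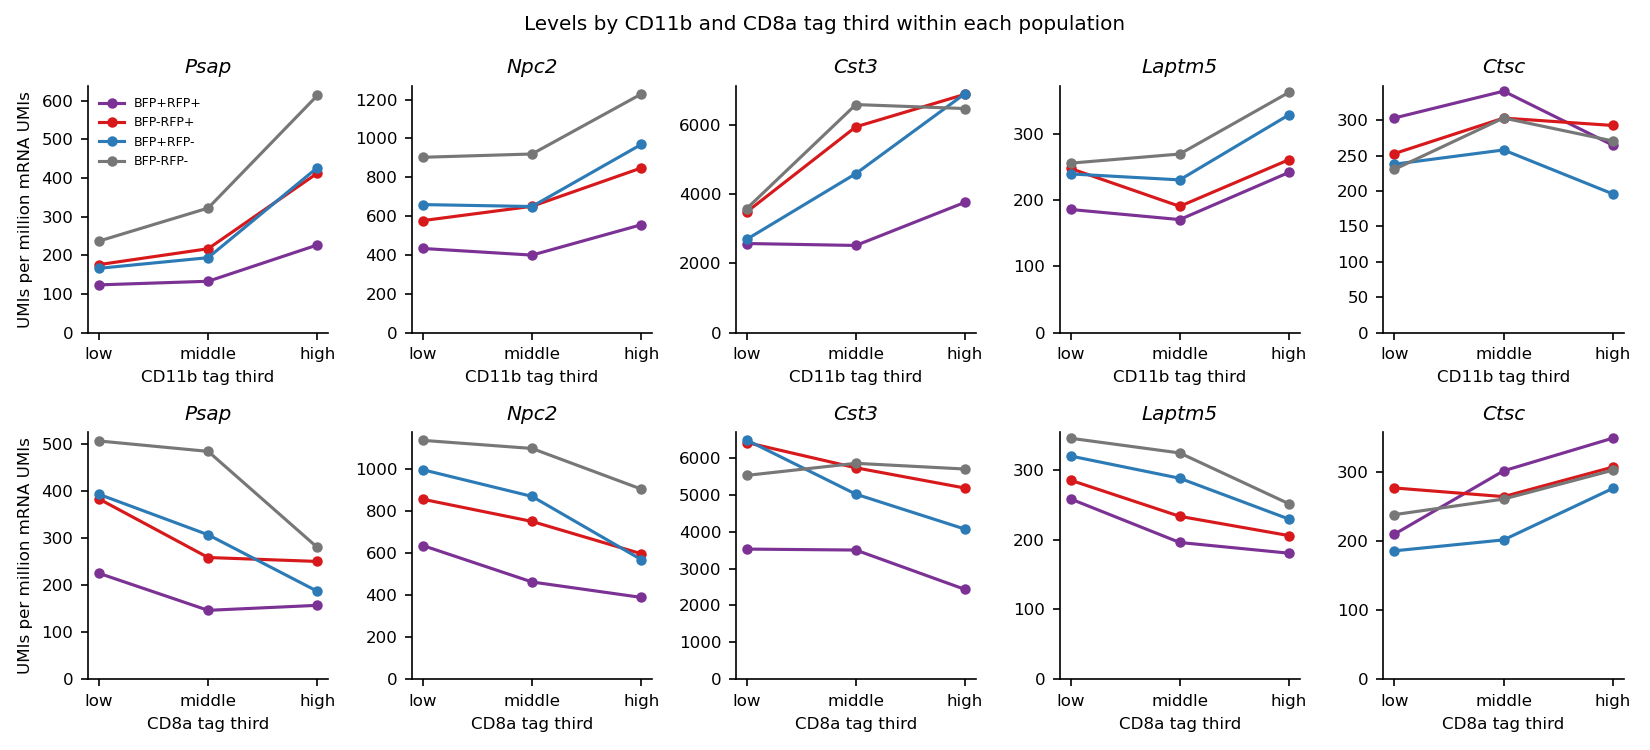
CPM of 5 lysosomal genes (y axis) in the low, middle and high parts of each tag (x axis) within each population, for CD11b above and CD8a below. Psap and Npc2 are highest in the high part of CD11b and lower in the high than the low part of CD8a in all 4 populations, and double-positive cells lie lowest for Psap, Npc2, Cst3 and Laptm5 in every part.

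The genes most like Psap over the 12 groups of population by CD11b part were named by Pearson's r of log2 CPM among 6488 genes with at least 1000 UMIs. They were Vamp8 (0.98), Il1b (0.97), Rab32 (0.97), Cstb (0.97) and Prkcd (0.97). Cstb is a cathepsin inhibitor and Rab32 a GTPase of lysosome-related organelles. Of the other lysosomal genes, Ctss was nearest at 0.95, with Npc2 and Ctsa at 0.91. The 12 points share 1 capture and differ in depth, so r is only a description.

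Further lysosomal genes outside the 35 were looked up by list, and their counts stand beside the shares of all tested genes given above. Of 26 other hydrolases and inhibitors with at least 100 UMIs, 16 were lower in BFP+ cells within RFP+ (24.5% of all tested genes) and 12 within RFP- (14.8%), and 0 were higher. Without C1q cells 13 and 8 were lower (23.6% and 13.3%), and 0 and 1 higher. Gm2a, the GM2 activator, had -0.65 and -0.67, and Arsb, an arylsulfatase, -0.51 and -0.58. For RFP, 6 of the 26 were lower and 2 higher within BFP+, and 10 lower and 3 higher within BFP-. Without C1q cells these counts were 5 and 3, and 7 and 5. Of 12 membrane and traffic genes, 7 and 4 were lower and 0 higher in the BFP comparisons. Without C1q cells 6 and 2 were lower (23.6% and 13.3% of all tested genes), the latter near that share. Of 16 subunit genes of the proton pump that acidifies the lysosome, 5 and 1 were lower and 0 higher, a share near that of all tested genes within RFP+ and below it within RFP-, with Atp6v1a at -0.51 and -0.32. Of 13 genes of nutrient sensing and biogenesis, 2 and 2 were lower and 0 higher. That share is below that of all tested genes within RFP+ and near it within RFP-. Mitf, a relative of Tfeb, was at -0.49 and -0.72 for BFP and at -0.47 and -0.70 for RFP.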

How the data were processed

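The deposited values are UMI counts, not normalised, in 1 matrix for genes, 4 antibody tags and 4 hashtags over called cells. Its header names Cell Ranger 7.0.0, and GRCm39 (mm39) is the build per the submitters' processing notes. How cells were called is not stated there. Cells were kept with 1 hashtag at 80% or more of the hashtag UMIs, at least 1000 mRNA UMIs and at most 10% of them from mitochondrial genes. UMIs were summed per population and scaled to CPM, the count per 1000000 mRNA UMIs. Log2 ratios had 0.5 UMI added to each sum. Intervals are exact 95% Poisson intervals for levels and conditional binomial intervals for ratios. They cover counting error only, since each population is 1 sample, and the interval of a difference of ratios rests on a normal approximation. The background is the 10888 genes with at least 100 UMIs. Python 3.11.15, numpy 2.4.6, scipy 1.17.1 and R 4.3.3 with Seurat 5.3.0, edgeR 4.0.16 (TMM) and DESeq2 1.42.0 (size factors) were used, the last 3 only for alternatives. The functions were tested on simulated data. Promoters came from RefSeq (GRCm38.p6). Genes with full values were those lower or higher in both states of a reporter, plus Cst3, Ctss, Psap, Lamp1 and Tfeb, with the 3 highest and 3 lowest per tag. Other genes were named after their values had been seen. The members, lists and tests were chosen with earlier results of these data known.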

Additional observations from a re-analysis of the deposited data

Results flagged for a closer look

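For 2 of the 35 genes the BFP ratio pointed in opposite directions in RFP+ and RFP- cells, with counting intervals that leave out 0 in each. The difference was not tested, since each population is 1 sample. Ctsc, cathepsin C, had a log2 ratio of 0.067 within RFP+ and -0.25 within RFP-. It went to -0.15 within RFP+ when 3 equal parts of the CD8a tag range were given equal weight. Cd63, a tetraspanin of late endosomes, had -0.091 within RFP+ and 0.039 within RFP-. Within RFP+ it was at 0.01 under TMM and DESeq2 scaling, on the other side of 0. None of these ratios reached 0.3 in size.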

How the results depend on the processing

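No paired analysis was possible because there is only 1 sample of each population. At a threshold of log2 0.5 the number of genes past it was 10 (17 at 0.3) and 7 (15) for BFP within RFP+ and RFP-, 6 (11) and 3 (9) for RFP within BFP+ and BFP-, and 9 (16), 8 (16), 8 (16) and 2 (7) for CD11b, CD8a, CD172a and CD301b. With the 10% of cells highest and lowest for a tag it was 25 for CD11b, 28 for CD172a and 13 for CD301b. Ranking by the centred log ratio of the tag gave 9 for CD172a (7 higher and 2 lower) and 19 for CD11b (18 higher and 1 lower). For CD301b it was 14 with each cell given the same weight and 12 with cells thinned to 5000 UMIs. Equal weight for 3 parts of the CD8a range, chosen after seeing the data as were the alternatives for C1q cells, gave 6 for RFP within BFP+. With each cell given the same weight, RFP within BFP- had 5 genes higher and 5 lower. Some ratios past log2 0.3 in the reported setting changed sign. With each cell given the same weight these were Ctsl for BFP within RFP- (0.047) and Lipa with CD11b (-0.0061). Others were Ctsl with CD8a after thinning (0.17) and Ctsl with CD172a by centred log ratio (-0.12) and without C1q cells (-0.026). By centred log ratio, Ctsb (-0.018) and Psap (-0.025) with CD301b did so too. Smaller ratios that crossed 0, such as those of Ctsc and Cd63 above, are not listed. The cause was not tested. DESeq2 size factors moved all ratios of BFP within RFP+ by 0.105. Over 18 settings, the reported one included, BFP within RFP+ ran from -0.82 to -0.51 for Psap, from -0.66 to -0.44 for Npc2, from -0.69 to -0.03 for Galc and from -0.43 to -0.11 for Lipa. Of the 12 genes lower in both BFP comparisons 5 were so in all 18, and of the 6 for RFP 3 were, all at the threshold of 0.3. Depth limits Smpd1, Cln3, Mcoln1 and Lipa most.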

Other observations

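Outside the C1q cells, barcodes with 3 or more UMIs of Cd3d, Cd3e and Cd3g together and fewer of Cd79a, Cd79b and Ms4a1 numbered 238, and they held the 35 genes at a median of 79.8% of the level in the 4595 cells with neither signal, with a range of 38.9% to 416%. Their sum over the 35 genes was 5859 CPM against 11506 CPM, and the abundant Cd63 (38.9%), Cst3 (40.9%), Ctsh (44.5%) and Ctsz (47.5%) were among the lowest. They also carried the migratory dendritic cell marker Ccr7 at 921 CPM, against 1479 CPM in those cells. The 134 barcodes with 3 or more of those B cell UMIs instead held the 35 genes at a median of 98.3% of that level (27.6% to 221%), a sum of 8237 CPM, with Ccr7 at 863 CPM. Free mRNA in the droplets, and its share in the levels above, was not tested.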
